A study of Mus musculus with 5 samples.

Results

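Subunits of the respiratory chain and of ATP synthase were described in Hdac3-null liver tumours and control livers of the mouse. The members were the genes whose symbols on the array begin as those of complex I (Nduf followed by a, b, c, s or v and a digit), complex II (Sdha to Sdhd), complex III (Uqcr, Cyc1), cytochrome c (Cycs), complex IV (Cox4 to Cox8) and complex V (Atp5). They numbered 83 of 19938 measured genes, each represented by its brightest probe set with 1 gene symbol: 33 were placed in complex I, 4 in complex II, 9 in complex III, 1 as cytochrome c, 19 in complex IV and 17 in complex V. Ndufa4 and its relative Ndufa4l2 were placed with complex IV, where the Ndufa4 protein is now known to sit. The rule used gene symbols, and measured brightness only to pick the probe set of a gene.

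The arrays held RNA from male mice aged about 10 months on regular food. The 2 controls were normal livers of Hdac3FL/+; AlbCre+ mice, and the 3 other samples were liver tumours of Hdac3FL/-; AlbCre+ mice. Cre under the albumin promoter acts in hepatocytes, so control hepatocytes also lose their floxed allele and keep the wild-type one, while null hepatocytes keep no intact Hdac3. Every null sample was tumour and every control was normal tissue, so genotype and tumour cannot be told apart. Hdac3 itself stood at log2 values of 8.21 and 8.37 in the control livers, and tumours 1, 2 and 3 read 6.78, 6.57 and 6.65.

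The respiratory chain sits in the inner mitochondrial membrane. Complexes I and II pass electrons from NADH and succinate to coenzyme Q, complex III hands them to cytochrome c, and complex IV reduces oxygen. Complexes I, III and IV pump protons, and complex V, the ATP synthase, uses the proton flow to make ATP. Hepatocytes are rich in mitochondria and depend on this chain to feed urea synthesis and gluconeogenesis. Mitochondrial DNA encodes some subunits of complexes I, III, IV and V; the nucleus encodes the rest, and these nuclear genes are the ones examined here.

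Most nuclear subunit genes lay slightly below control in the tumours, and few passed the test singly. The log2 change, tumour minus control mean, was below 0 for 73 of the 83 genes, against 52.9% of all genes. Its median was −0.36, against −0.02 over all genes and −0.00277 over the 3783 bright genes, those averaging 8 or more on the log2 scale, of which 68 were members. On every tumour array, 58 members lay below both controls, which is 69.9% of them, against 23.1% of all genes and 31.5% of bright ones. With quantile normalisation repeated, 50 members did so (25.1% of all genes), and with array medians set equal 58 did (29.1% of all genes). In the opposite direction, 4 members lay above both controls on all tumour arrays, where 21.1% of all genes did.

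A fit across all genes (limma, Benjamini-Hochberg adjustment, adjusted p under 0.05) called 8 members fallen: Ndufb11, Sdha, Uqcrb, Uqcr11, Ndufb5, Ndufb8, Ndufs8 and Ndufb6. That is 9.64% of the members, against 4.96% fallen among all genes. All 8 were bright, which makes 11.8% of the 68 bright members, close to the 9.83% fallen among bright genes as a whole. At an adjusted p under 0.1 the fallen members numbered 23, of which 21 were bright, with 7.94% of all genes and 15.4% of bright genes fallen. At an unadjusted p under 0.05 they numbered 40, of which 37 were bright, where 12.3% of all genes and 22% of bright genes fell. Called risen were 0 members at each of these levels, where 5.6%, 8.74% and 12.9% of all genes rose, and limma was the tool in each case. An ordinary test per gene, with no spread shared across genes, called 0 members in either direction.

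Those 8 calls all rested on both controls. Without control 1 or control 2 none passed (lowest limma adjusted p 0.133 and 0.14), the lone control then being assumed to vary like the tumours. Without tumour 1, Ndufb5, Ndufb6, Ndufs8 and Uqcr11 were lost, without tumour 2 Ndufs8 and Uqcrb, and without tumour 3 Ndufb6. Ndufb11, Ndufb8 and Sdha kept their calls without any of the tumours.

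**Figure D1:**
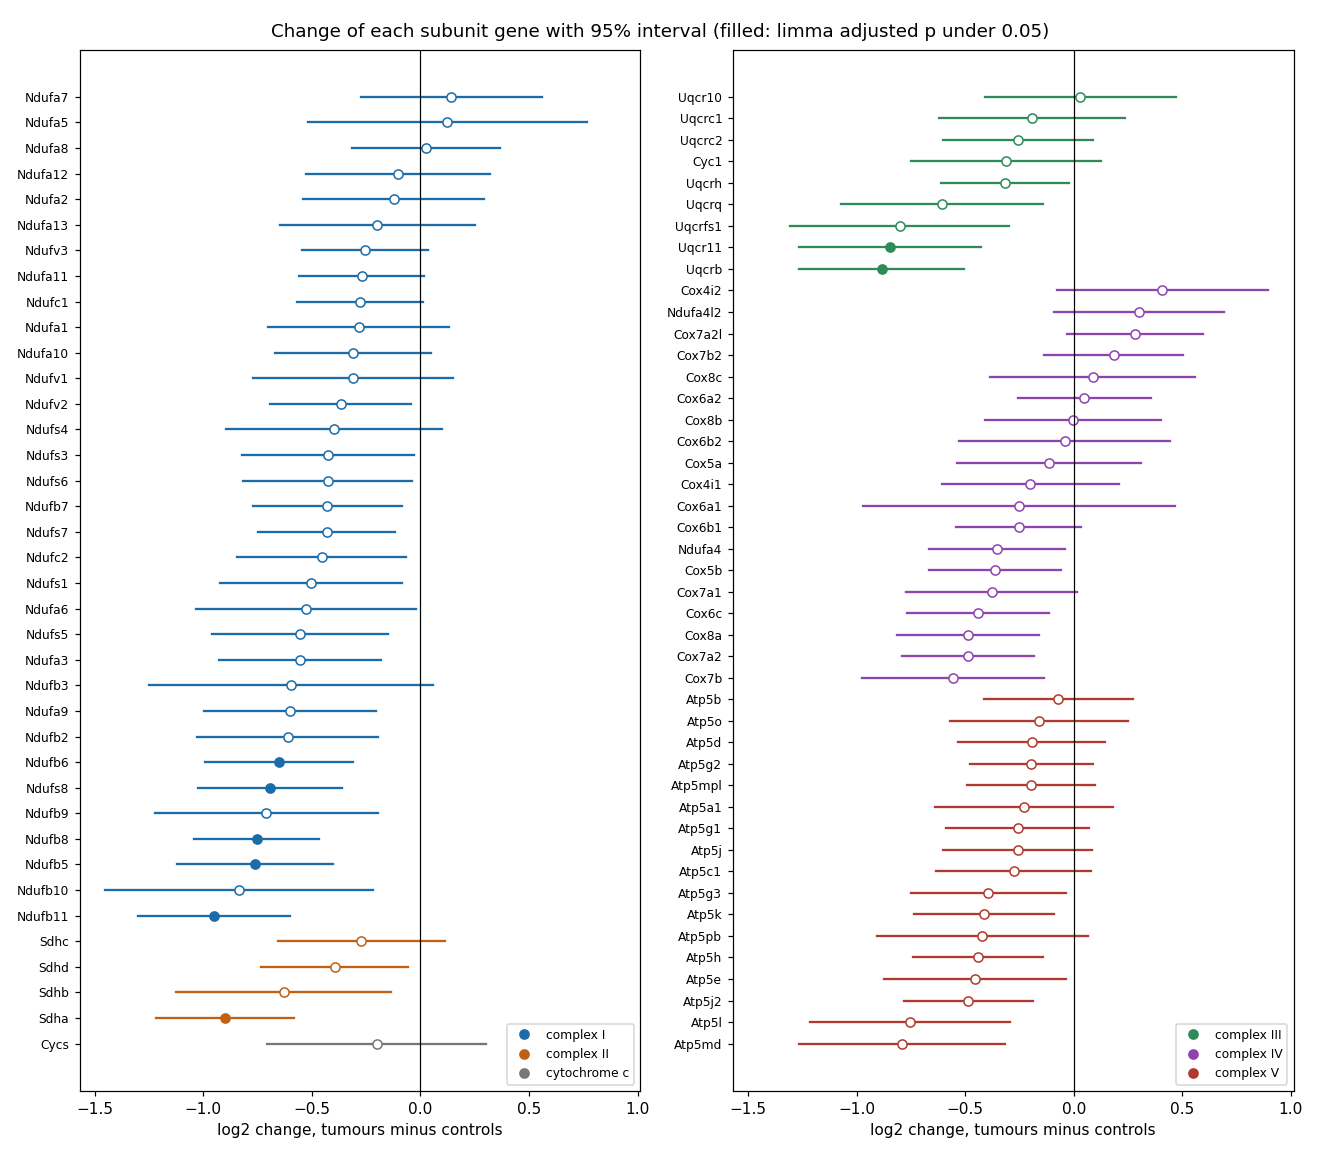
Log2 change (x axis, tumours minus controls, n = 3 and 2) of each of the 83 genes (y axis), with the 95% confidence interval of the limma fit as a line. Colours mark the complexes and filled points mark the 8 genes called fallen; most points lie left of 0, and 5 of the 10 right of 0 are tissue isoforms or paralogues of complex IV.

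The promoters of the members were searched for motifs of factors known to act on respiratory genes. Of the 83 members, 67 matched a RefSeq promoter table (GRCm38.p6) by gene identifier, with 72 windows of 250 bases before to 50 bases after a start site. A total of 5 motifs were searched on both strands. They were GCGCATGC for NRF1, AAGATGGC for YY1, CCGGAAG for ETS factors such as GABP, TCAAGGTCA for oestrogen-related receptors and GGGCGG for SP factors. No motif is contained in another. The 4 windows printed show NRF1 letters in a fallen gene (Uqcr11) and in genes that did not pass (Cycs, Ndufa8), and YY1 letters in a fallen gene (Ndufb8); capitals mark motif matches on either strand, and each window is written along its gene, 5′ to 3′. They lie on the minus strand at chr10:80406772-80407071 (Uqcr11), chr19:44555393-44555692 (Ndufb8), chr6:50566520-50566819 (Cycs) and chr2:36049289-36049588 (Ndufa8).
Uqcr11: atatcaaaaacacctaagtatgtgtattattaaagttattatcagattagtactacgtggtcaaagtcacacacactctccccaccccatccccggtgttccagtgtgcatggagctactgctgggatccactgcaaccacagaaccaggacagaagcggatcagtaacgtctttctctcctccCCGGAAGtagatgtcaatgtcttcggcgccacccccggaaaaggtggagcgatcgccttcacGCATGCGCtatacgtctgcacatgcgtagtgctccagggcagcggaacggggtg
Ndufb8: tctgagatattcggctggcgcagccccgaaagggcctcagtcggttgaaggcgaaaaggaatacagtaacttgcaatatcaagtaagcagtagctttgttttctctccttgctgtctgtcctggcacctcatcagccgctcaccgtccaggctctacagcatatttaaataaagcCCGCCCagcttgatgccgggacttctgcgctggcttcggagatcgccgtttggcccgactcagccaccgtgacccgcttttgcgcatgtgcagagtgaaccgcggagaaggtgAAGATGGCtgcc
Cycs: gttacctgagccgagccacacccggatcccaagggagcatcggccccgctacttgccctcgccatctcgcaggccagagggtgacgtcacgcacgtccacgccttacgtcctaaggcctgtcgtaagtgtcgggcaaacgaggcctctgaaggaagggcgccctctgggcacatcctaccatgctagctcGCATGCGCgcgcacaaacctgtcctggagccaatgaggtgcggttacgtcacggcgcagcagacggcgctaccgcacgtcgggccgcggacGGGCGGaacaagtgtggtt
Ndufa8: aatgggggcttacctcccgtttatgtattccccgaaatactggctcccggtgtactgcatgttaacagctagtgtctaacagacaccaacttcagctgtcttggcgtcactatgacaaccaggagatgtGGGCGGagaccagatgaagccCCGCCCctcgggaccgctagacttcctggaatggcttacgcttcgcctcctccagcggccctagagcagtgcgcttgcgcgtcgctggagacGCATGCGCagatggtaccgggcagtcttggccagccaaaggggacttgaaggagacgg

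The NRF1 letters stood in 11 of the 72 member windows (15.3%), in 2.71% of all 32851 windows and in 5.67% of the windows of bright genes. For YY1 the count was 10 (13.9%, against 2.75% and 5.14%), for ETS 17 (23.6%, against 8.86% and 18.1%) and for the oestrogen-related receptor letters 2 (2.78%, against 0.423% and 0.252%). SP letters stood in 29 windows (40.3%), more than in all windows (35.7%) and fewer than in those of bright genes (63.9%). Of 10 YY1 matches, 7 lay in the 32 windows of complex I genes (21.9%) and 3 in the 18 of complex V genes (16.7%). All 7 of complex I began 22 to 38 bases after the start site, on the strand of the gene. Those of complex V began at −88 (Atp5j), −3 (Atp5pb) and 23 (Atp5j2). The 8 fallen genes had 7 windows, so at least 1 had none. Of the 7, 3 held ETS, 2 SP, 1 NRF1 and 1 YY1 letters. These matches lay in Ndufb6, Ndufb8, Ndufs8 and Uqcr11, and none of the 5 motifs was found for Ndufb11, Ndufb5, Sdha or Uqcrb. A match is a stretch of letters and was not tested as a binding site.

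Complex I, the NADH dehydrogenase, held 5 of the 8 fallen genes. That is 15.2% of its genes, against 4.96% fallen among all genes and 9.83% among bright genes. Of its 33 measured genes 30 lay below control, where 52.9% of all genes did, and the median log2 change was −0.43. Its shape is that of an L: a matrix arm carries the flavin and iron-sulfur centres, and a membrane arm carries the proton pumps. Genes were divided by arm after their values were seen, so the division is a description with no test between arms. The median was −0.71 for the 9 genes of the distal membrane arm (the Ndufb genes), −0.40 for the 15 of the matrix arm and −0.28 for the 9 of the proximal membrane arm.

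In the distal membrane arm 4 of 9 genes fell, where 4.96% of all genes and 9.83% of bright genes did. All 9 lay below both controls on every tumour array, where 23.1% of all genes and 31.5% of bright genes did. Ndufb11, a small single-span subunit of that arm, had the largest measured fall among the 83, with log2 values of 9.96 and 9.89 in the controls and 8.97, 9.14 and 8.81 in the tumours. It changed by −0.95 (SE 0.14; 95% interval −1.30 to −0.60; limma adjusted p = 0.0148), to 51.8% of the control level. Its second probe set gave −0.98.

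Ndufb8, whose protein is widely used as a readout of assembled complex I, read 9.05 and 9.03 in the controls and 8.22, 8.36 and 8.27 in the tumours. The tumours were tightly grouped, and the change was −0.75 (SE 0.12; adjusted p = 0.0166). Ndufb5 read 9.64 and 9.72 against 8.80, 9.12 and 8.84, a change of −0.76 (SE 0.15; adjusted p = 0.0297). Ndufb6 read 10.03 and 9.99 against 9.27, 9.54 and 9.27, a change of −0.65 (SE 0.14; adjusted p = 0.0399). In both genes tumour 2 was the highest tumour and still lay below the controls. The 5 other Ndufb genes, which did not pass, ranged from −0.83 for Ndufb10 (adjusted p = 0.0976) to −0.43 for Ndufb7 (adjusted p = 0.12). Ndufb4 is covered only by probe sets that also list Ndufb4b, at −0.31 and −0.33.

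The 6 measured core subunits of the matrix arm all lay below both controls on every tumour array, where 23.1% of all genes did. Of the 6, 1 fell, where 4.96% of all genes did. Ndufs8, which carries a pair of iron-sulfur clusters, read 9.10 and 9.09 in the controls and 8.24, 8.44 and 8.52 in the tumours. The change was −0.69 (SE 0.14; adjusted p = 0.0307). The others did not pass: Ndufs1 stood at −0.50, Ndufs7 at −0.43, Ndufs3 at −0.42, Ndufv2 at −0.37 and Ndufv1, the NADH-binding flavoprotein, at −0.31. With quantile normalisation repeated, Ndufs3 stood at −0.25. Among the accessory genes the highest values were those of Ndufa7 (0.14, 95% interval −0.28 to 0.56) and Ndufa5 (0.12, 95% interval −0.52 to 0.77), with groups that overlapped. Ndufa5 owed its sign to tumour 2, at 9.09 against 8.31 and 8.32 in the other tumours and 8.45 in both controls; without that tumour its change was −0.13.

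Complex II, the succinate dehydrogenase, also belongs to the tricarboxylic acid cycle. All 4 of its genes lay below both controls on every tumour array, where 23.1% of all genes and 31.5% of bright genes did. Sdha, the flavoprotein that oxidises succinate, read 11.31 and 11.29 in the controls and 10.54, 10.29 and 10.37 in the tumours. It fell to 53.5% of control, a change of −0.90 (SE 0.13; 95% interval −1.22 to −0.58; adjusted p = 0.013). Sdhb, the iron-sulfur partner of Sdha, read 9.65 in both controls and 8.74, 9.37 and 8.95 in the tumours; its change of −0.63 did not pass (SE 0.20; adjusted p = 0.116). The membrane anchors Sdhd and Sdhc stood at −0.39 and −0.27 and did not pass.

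In complex III, 2 of 9 genes fell, both small subunits with no redox centre. Among all genes 4.96% fell, and among bright genes 9.83%. Uqcrb, which lies near the coenzyme Q pocket, read 10.78 and 10.86 in the controls and 10.16, 9.77 and 9.87 in the tumours. The change was −0.88 (SE 0.16; adjusted p = 0.0233), with −0.90 and −0.96 from its 2 other probe sets. Uqcr11 read 8.78 and 8.66 against 7.91, 8.09 and 7.62, a change of −0.85 (SE 0.17; adjusted p = 0.0341); its other probe set gave −0.64. All tumours lay below both controls for each probe set of these 2 genes.

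The redox and core subunits of complex III did not pass the test. Uqcrfs1, the Rieske iron-sulfur protein, read 8.69 and 8.68 in the controls and 8.19, 7.92 and 7.54 in the tumours, a change of −0.80 (SE 0.21; adjusted p = 0.0642). Cyc1, the cytochrome c1 protein, stood at −0.31, and the core proteins Uqcrc2 and Uqcrc1 at −0.25 and −0.19. With quantile normalisation repeated, Cyc1 stood at −0.17, Uqcrc2 at −0.10 and Uqcrc1 at −0.05. For Cyc1 and Uqcrc1 the groups overlapped, tumour 2 reading 10.68 and 10.74. Uqcr10 stood at 0.03 (95% interval −0.41 to 0.47), and turned to −0.025 once every array had the same median. Cycs, which carries electrons from complex III to complex IV, read 10.14 and 10.37 in the controls and 9.75, 10.36 and 10.05 in the tumours (−0.20; adjusted p = 0.629), and −0.11 with that normalisation.

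**Figure D2:**
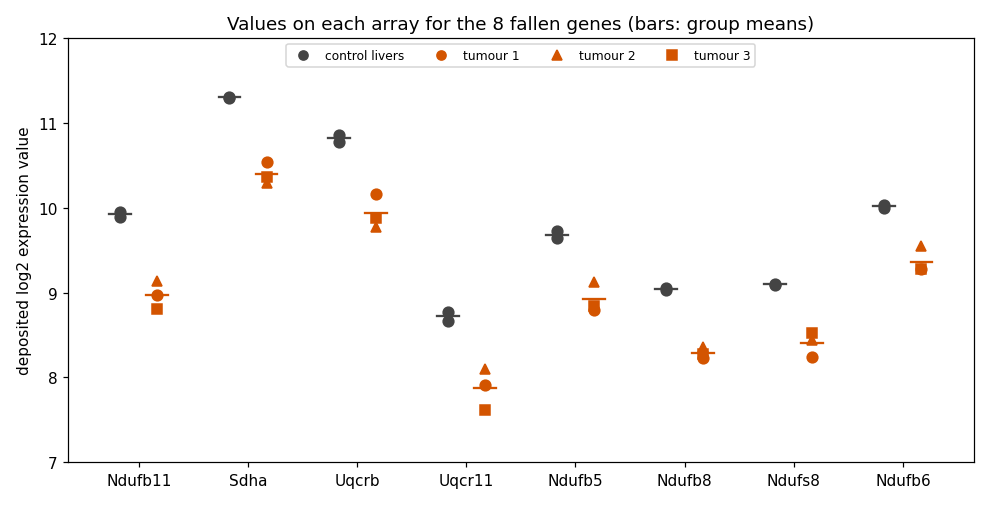
Deposited log2 value (y axis) on each array for the 8 genes called fallen (x axis, from the largest fall on the left), with 2 control livers in grey and 3 tumours in orange, and horizontal bars at the group means. For each gene the tumours lie below both controls, and tumour 2 is the highest tumour for Ndufb11, Ndufb5, Ndufb6, Ndufb8 and Uqcr11 and the lowest for Sdha and Uqcrb.

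In complex IV, the cytochrome c oxidase, 0 of 19 genes passed (6 fallen and 0 risen at an unadjusted limma p under 0.05). All 10 common subunits lay below the control mean, with a median of −0.36, and did so too with quantile normalisation repeated. The larger ones were Cox7b (−0.55), Cox7a2 (−0.49; adjusted p = 0.063), Cox8a (−0.49; adjusted p = 0.0771) and Cox6c (−0.44). Cox4i1 and Cox5a, which join the catalytic core early in assembly, stood at −0.20 and −0.11 with overlapping groups, and Cox5b at −0.36. Cox6a1 (−0.25) owed its sign to tumour 3, at 9.23 beside 9.91 and 10.23 in the other tumours, while Cox6b1 stood at −0.25 and Ndufa4 at −0.35. Quantile normalisation brought Cox6b1 to −0.08, Ndufa4 to −0.20, Cox4i1 to −0.10 and Cox5a to −0.05. Cox7c, covered only by probe sets that also list Gm12338, stood between −0.43 and −0.41 on 3 probe sets.

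Among the 8 tissue isoforms and paralogues 5 lay above and 3 below the control mean, the median was 0.07, and none passed. Cox4i2, the lung form of subunit 4, read 5.89 and 5.64 in the controls and 6.06, 5.96 and 6.50 in the tumours (0.41; adjusted p = 0.276). Ndufa4l2, known as a hypoxia-induced paralogue, stood at 0.30 and Cox7a1, the heart and muscle form of subunit 7a, at −0.38. Cox8c stood at 0.09, Cox6a2 at 0.05 and Cox6b2 at −0.04, and Cox8b at −0.00299. Cox7b2 (0.19) was under the lower quartile of the arrays in both groups and was not shown to be above background. The other isoforms and paralogues were above that quartile, but each had a lower control mean than the skeletal muscle gene Acta1 (6.22). Whether they were above background was not tested, so their median near 0 does not show that expressed isoforms kept their level. Cox7a2l, which links complexes III and IV into supercomplexes and is no regular subunit, read 9.30 and 9.52 in the controls and 9.70, 9.73 and 9.66 in the tumours. All tumours lay above both controls, and the change of 0.28 (95% interval −0.03 to 0.59; adjusted p = 0.242) did not pass.

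In complex V, 0 of 17 genes passed (7 fallen and 0 risen at an unadjusted limma p under 0.05), and all 17 lay below the control mean, although Atp5b turned to 0.021 with quantile normalisation repeated. Of the parts of complex V, the catalytic head had the median nearest to 0, at −0.15. Atp5b, the catalytic beta subunit, read 12.18 and 12.24 in the controls and 12.02, 12.31 and 12.08 in the tumours (−0.07; 95% interval −0.41 to 0.27). Atp5a1, the alpha subunit, stood at −0.23, and the gamma subunit Atp5c1 of the central stalk at −0.28; quantile normalisation brought them to −0.11 and −0.12. In the peripheral stalk, Atp5o, the oligomycin-sensitivity protein, stood at −0.16 and Atp5h at −0.44. The 3 genes that encode the same mature c subunit of the rotor stood at −0.39 (Atp5g3), −0.26 (Atp5g1) and −0.20 (Atp5g2). Quantile normalisation brought Atp5g3 to −0.25, Atp5g2 to −0.07 and Atp5o to −0.11.

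The 5 accessory genes of the membrane part of complex V, which help ATP synthase to form dimers, had a median of −0.48. Atp5md read 10.72 and 10.71 in the controls and 10.14, 9.59 and 10.06 in the tumours, a change of −0.79 (SE 0.19; adjusted p = 0.0565). Atp5l read 9.36 and 9.37 against 8.63, 8.89 and 8.32, a change of −0.75 (SE 0.19; adjusted p = 0.0596). Its 5 other probe sets gave −0.87 to −0.75. Neither passed, and quantile normalisation gave adjusted p = 0.116 for Atp5md and 0.0727 for Atp5l. Atp5md passed with array medians set equal (adjusted p = 0.0374) and Atp5l when the probe sets were averaged (adjusted p = 0.0499).

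**Figure D3:**
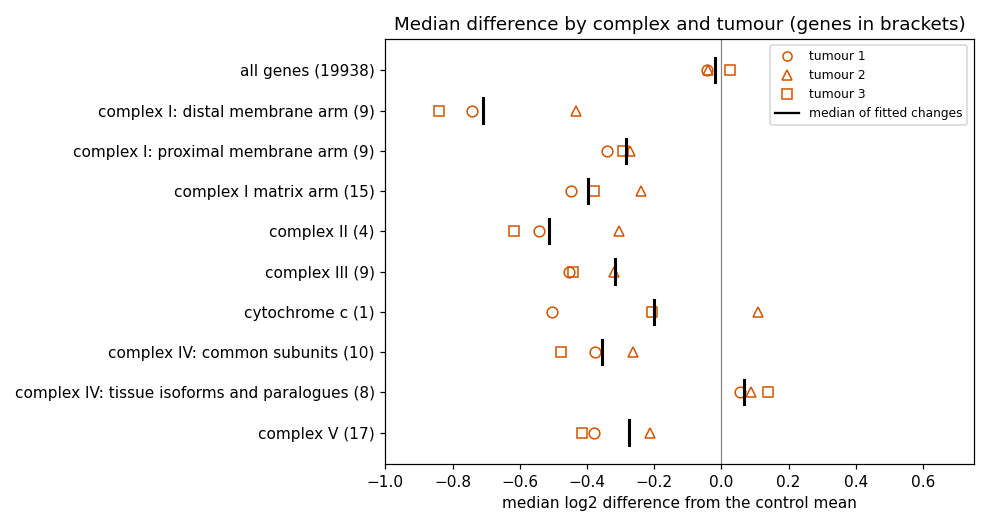
Median log2 difference from the control mean (x axis) over the genes of each complex, or part of one (y axis, number of genes in brackets), in each of the 3 tumours (open symbols), with the median of the fitted changes as a black bar. Of the groups drawn, the distal membrane arm of complex I lies lowest and the tissue isoforms of complex IV lie just above 0.

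The tumours were unequal. The median over the 83 genes was −0.38 in tumour 1, −0.23 in tumour 2 and −0.43 in tumour 3. Tumour 2 had the highest value of the 3 for 60 members (72.3%), while it did so for 26.1% of all genes and 38.5% of bright genes. It had the lowest value for 10 members, among them Sdha, Uqcrb and Atp5md. Without tumour 2, the median over the members was −0.43 and that of complex III moved from −0.32 to −0.46.

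Genes that serve the chain without being subunits were taken from fixed lists. Their counts stand beside the 4.96% of all genes that fell and the 5.6% that rose. Assembly factors of complex I all lay below the control mean, 14 of 14, with a median of −0.30, and 4 fell: Ecsit (−1.09; limma adjusted p = 0.0394), Ndufaf6 (−0.77), Ndufaf1 (−0.73) and Tmem126b (−0.65). Of 11 assembly factors of complexes II and III, 1 fell (9.09%), Sdhaf3 (−0.60), and of 20 for complex IV, 1 fell (5%), Cmc2 (−0.69). Of 10 coenzyme Q synthesis genes 0 passed (1 fallen and 1 risen at an unadjusted limma p under 0.05). Of 9 other enzymes that feed electrons to coenzyme Q, Prodh2 (−3.11) and Prodh (−2.74) fell. Of 16 tricarboxylic acid cycle genes 1 fell (6.25%), Sucla2 (−0.89), and the median was −0.15, with 0.36 in tumour 2. Called risen were 0 genes of these lists, and at an unadjusted limma p under 0.05 1 gene each of complex IV assembly and coenzyme Q synthesis rose.

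Of 7 measured assembly factors, carriers and regulators of ATP synthase, 2 rose and 0 fell (2 and 2 at an unadjusted limma p under 0.05). Among all genes 5.6% rose and 4.96% fell. Slc25a4, the ADP/ATP carrier typical of heart and muscle, read 6.64 and 6.69 in the controls and 8.32, 9.78 and 10.14 in the tumours, a rise of 2.75 (SE 0.52; adjusted p = 0.028). Slc25a5, the carrier usual in liver, read 11.43 and 11.46 against 11.42, 11.90 and 11.58 (0.19; adjusted p = 0.568), and the phosphate carrier Slc25a3 stood at −0.04. Atpif1, whose product inhibits ATP hydrolysis by the synthase, read 8.51 and 8.67 in the controls and 9.85, 10.54 and 10.41 in the tumours, a rise of 1.68 (SE 0.23; adjusted p = 0.0114). For both risen genes tumour 1 was the lowest tumour and lay above the controls. Both calls were lost without control 1 or control 2, and that of Slc25a4 also without tumour 2 (limma adjusted p = 0.0803). The ordinary test per gene called neither (adjusted p = 0.21 for Slc25a4 and 0.139 for Atpif1), and called 6 risen among all genes.

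**Figure D4:**
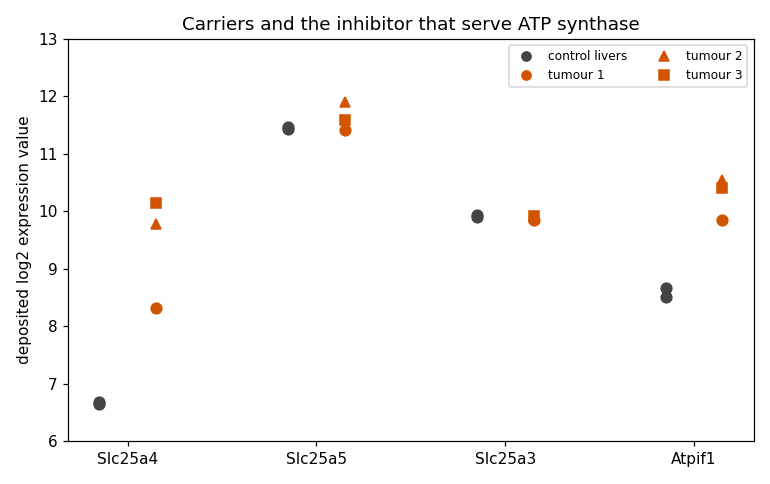
Deposited log2 value (y axis) on each array for the ADP/ATP carriers Slc25a4 and Slc25a5, the phosphate carrier Slc25a3 and the inhibitor Atpif1 (x axis), with 2 control livers in grey and 3 tumours in orange. Slc25a4 and Atpif1 are higher in every tumour than in both controls, while Slc25a5 and Slc25a3 overlap between groups.

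Among 15 nuclear regulators of mitochondrial genes, 1 fell (6.67%, near the 4.96% among all genes). Esrrg, an oestrogen-related receptor, read 6.60 and 7.12 in the controls and 5.88, 5.65 and 5.52 in the tumours (−1.18; adjusted p = 0.0213). Ppargc1a, the coactivator PGC-1alpha, read 5.75 and 5.30 against 4.87, 4.41 and 3.61; the tumours lay below both controls, and the measured change of −1.23 did not pass (SE 0.37; adjusted p = 0.101). Its tumour mean was under the lower quartile of the tumour arrays and was not shown to be above background. Nrf1 stood at 0.08, Gabpa at −0.15, Yy1 at 0.27 and Tfam at −0.33, none past the test. Of 12 outer membrane genes, Tomm20 rose by 0.66 and Mfn1 fell (−0.64), each call lost with array medians set equal (limma adjusted p = 0.0594 for Tomm20 and 0.0509 for Mfn1), and the list's median was 0.14. Without control 1 or control 2 the calls of the other lists named here were lost as well, like nearly all calls among all genes. The ordinary test per gene called none of these genes either. Without tumour 1 the calls of Ecsit, Ndufaf6, Ndufaf1, Sdhaf3, Cmc2, Sucla2 and Mfn1 were lost, without tumour 2 those of Ndufaf6, Ndufaf1, Tmem126b, Sdhaf3, Cmc2, Esrrg, Tomm20 and Mfn1, and without tumour 3 those of Ecsit, Ndufaf1, Tomm20 and Mfn1.

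**Figure D5:**
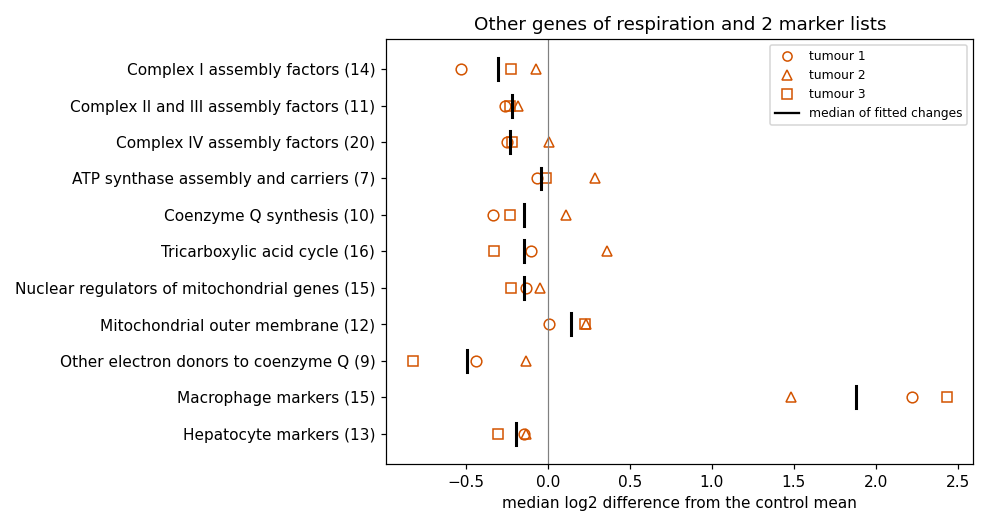
Median log2 difference from the control mean (x axis) over each list (y axis, measured genes in brackets) in each of the 3 tumours (open symbols), with the median of the fitted changes as a black bar. Lists of respiration lie between −0.50 and 0.14 and the macrophage markers at 1.88.

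Markers of other cells moved in the same tumours. Of 15 macrophage markers 8 rose and 0 fell, where 5.6% of all genes rose. These calls were lost without control 1, without control 2 and in the ordinary test per gene. The summed linear level of the 15 was 1201 to 1659 in the controls and 3468 to 6814 in the tumours. The list was not uniform: Clec4f (−0.80) and Vsig4 (−0.20) lay below the control mean. Cd5l (0.36), Timd4 (0.36) and Marco (0.23) did not pass either. Vsig4 read 9.84, 7.34 and 4.55 in tumours 1, 2 and 3, and 7.07 and 7.83 in the controls. Of 13 hepatocyte markers 1 fell (Ttr, −0.71), which is 7.69% beside 4.96% of all genes, and 0 rose. Their summed levels were 76325 to 77122 in the controls and 57642 to 70347 in the tumours. This list was not uniform either: 10 lay below and 3 above the control mean, with a median of −0.20. Pck1 (−2.41) and Cps1 (−0.86) lay lowest and did not pass, while Alb (−0.12), Apob (−0.05), Ahsg (0.04) and Fga (0.14) lay nearer to 0. Of 10 stellate and fibroblast markers only Acta2 passed, as a rise. In that list 7 lay above and 3 below the control mean, Reln lowest (−1.64). Of 9 lymphocyte markers only Ptprc passed, as a rise, with 7 above and 2 below the control mean. The calls of Ttr, Acta2 and Ptprc were also lost without either control and in the ordinary test per gene. That of Ttr was lost without tumour 1 or tumour 2 and with quantile normalisation repeated (limma adjusted p = 0.0581). The macrophage marker Spi1 lost its call without tumour 2 (limma adjusted p = 0.0801). Of 8 cholangiocyte, 10 endothelial and 9 muscle and fat markers 0 passed (5 risen, 1 risen and 1 fallen, and 0 at an unadjusted limma p under 0.05). Every macrophage marker and hepatocyte marker was above the lower quartile of the arrays in the group means. In whole tissue, fewer cells of a type and less RNA per cell cannot be told apart, and the part of these markers in the subunit values was not tested.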

How the data were processed

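RNA of 2 control livers and 3 Hdac3-null liver tumours, described in the labels as biological replicates, was measured on 1-colour arrays. The deposited values are on a log2 scale; GCOS and RMA are named in the submitters' processing notes, and versions, genome build and annotation were not stated in the labels. RMA, where used, compresses differences of dim probe sets. No normalisation was added. Of 28853 probe sets, 21789 had 1 gene symbol, 1621 several and 5443 none in the platform annotation. The brightest probe set stood for each of 19938 genes, of which 999 had more than 1. Tumours and controls were compared over all genes with limma 3.58.1 in R 4.3.3 (3 residual and 2.98 prior degrees of freedom, Benjamini-Hochberg threshold 0.05), a procedure tested on simulated arrays. Python 3.11.15 with pandas 2.3.3 and matplotlib 3.10.9 did the rest. No depth exists for arrays, and their number limits the precision: an exact permutation test of 2 against 3 samples cannot go below p = 0.1. Array medians were 5.66 to 5.77, and correlations between arrays were 0.964 to 0.992 within and 0.906 to 0.948 between groups. A gene under the lower quartile of both groups (4.34 in controls, 4.31 in tumours) was called dim, since background was not measured in these values.

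Named genes were the called members, the largest rise and fall in each complex, the core subunits, isoform pairs, members that are no regular subunits, and up to 4 called genes of each list. Ndufb7, Ndufb10, Ndufa5, Cox6c, Atp5h, Atp5l, the uncalled carriers and the uncalled regulators were added after their values were seen. The members and lists were chosen with earlier results of these data known, and the division into arms and parts of complexes and the comparison with bright genes were added after the values were seen. Alternatives covered scaling, dim genes, choice of probe set, the moderation, array weights, the replicate number as a block and leaving out each array. The 13 subunits encoded in mitochondrial DNA, and probe sets with several symbols other than those named, were not analysed here.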

Additional observations from a re-analysis of the deposited data

How the results depend on the processing

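The calls rest on 2 controls and on the spread that limma borrows across genes. The number of fallen members was 8, where 989 of all genes fell. It was 0 with no moderation, where 12 of all genes fell, and 15 with array weights, where 1525 did. At an adjusted p under 0.1 it was 23, and at an adjusted p under 0.01 it was 0. Over the fits that leave out 1 tumour it was 5 to 10. Without control 1 or control 2 no call was kept, and nearly all calls among all genes were lost as well. The median over the members was −0.25 with quantile normalisation repeated. The median of cytochrome c, which is Cycs alone, was −0.62 from its dimmest probe set. Leaving out 1 array gave a complex III median of −0.46 to −0.28. Reversed signs were seen in genes near 0: Atp5b was 0.021 with quantile normalisation repeated, Uqcr10 was −0.025 with array medians set equal, and leaving out 1 array gave −0.11 to 0.15 for Uqcr10, −0.13 to 0.26 for Ndufa5 and −0.47 to 0.029 for Cox6a1. The cause was not tested. The replicate number was also fitted as a block, in which tumour 3 has no partner and adds nothing to the change. That fit gave 8 fallen members, of which 7 were shared, and 0.029 for Cox6a1. The deviation of control 1 correlated with those of tumours 1, 2 and 3 at 0.0039, 0.013 and −0.012. These values show no pairing by number, but with 2 controls they cannot exclude one. Of the values of single genes under the alternatives, 638 kept direction and side of the threshold, 32 lost the call, 13 gained one and 7 reversed. Of the counts and medians, 129 kept their value and 10 moved.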
